A study of Mus musculus with 5 samples.

Results

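The genes described here act on lipid droplets, the stores of triglyceride inside cells, and the measurement is single-cell RNA sequencing of hepatocytes from fed and fasted mice. The 10 genes were taken by symbol from a list: the perilipins Plin2, Plin4 and Plin5, the CIDE genes Cidea, Cideb and Cidec, the lipase gene Pnpla2, the genes G0s2 and Hilpda that encode inhibitors of that lipase, and Fitm1, all among 32285 genes of the deposited matrix. Membership rests on the gene symbol and on no limit for a measured value. Levels are counts of unique molecular identifiers (UMIs, 1 per captured RNA end) summed over hepatocyte barcodes and scaled so that the genes not encoded in mitochondria total 1000000 in a library (CPM). A barcode was taken as a hepatocyte if it held 1000 UMIs and 500 genes or more and its mitochondrial share was 2 to 30%, which kept 28810 of 50000 barcodes.

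The animals were male wild-type C57BL/6J mice on normal chow, trained for 3 days to eat for 8 h in daytime and go without food for the other 16 h. All groups then had chow and water with 20% sucrose for 4 h before the fed sample was taken or the food removed. There was 1 library for each of the 5 time labels, fed (0 h) and 4, 8, 16 and 24 h fasted, taken at clock hours 13, 17, 21, 5 and 13, so that hours without food and hour of day cannot be told apart except between 24 h and 0 h. The number and age of the animals behind a library are not given in the sources used here, and hepatocytes were isolated before capture, so that positions in the lobule were not recorded. With 1 library per label there is no replicate check, no test was run, and every interval below is an exact 95% interval for counting error only.

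The 5 libraries held 40002260 to 68330252 UMIs and 2716 to 9125 hepatocytes, whose non-mitochondrial UMIs summed to 33521626 to 45532684. The median hepatocyte had 4391 to 15005 UMIs, fewest at 16 h and most at 8 h. All 7 hepatocyte markers were detected in each library, with a summed level of 94458 to 121438 CPM. The 10 sinusoidal endothelial markers summed to 95.4 CPM at 0 h and to between 12.6 and 33.8 CPM in the other libraries, and 10 Kupffer cell and macrophage markers to 46.6 CPM at 0 h and between 0.444 and 7.13 CPM in the others. The 6 adipocyte markers summed to 5.31 to 7.31 CPM, most of it from Lipe, a lipase gene, at 6.64, 5.16, 5.44, 7.31 and 6.31 CPM in time order. Of the others, Adipoq, Plin1 and Lep were at 0 in 4 of 5, 4 of 5 and 5 of 5 libraries. Retn and Cfd were at most 0.159 and 0.132 CPM. Among the hepatocytes, 73 barcode sequences occurred in 2 libraries.

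A lipid droplet is a core of neutral lipid under a single phospholipid layer that carries coat proteins. Perilipins cover the droplet and regulate the access of lipases, CIDE proteins sit where droplets touch and promote their fusion or their transfer into lipoproteins, and adipose triglyceride lipase, encoded by Pnpla2, removes the leading fatty acid from a triglyceride. In fasting, fatty acids released by adipose tissue reach the liver, where they are stored in droplets, oxidised or exported.

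Promoter sequence is shown for 5 members: Plin5, Plin4 and Pnpla2, which were all highest in the 8 h library, Plin2, which was highest at 16 h, and Fitm1, whose level differed most along the hepatocyte order described later. The stretches are from RefSeq (GRCm38.p6), written 5′ to 3′ on the gene's strand, and end just before the most upstream annotated transcript start, or for Plin2 2 bases after it. Capitals mark exact matches to 7 motifs searched on both strands, and the lines give Plin5 (chr17:56117597-56117798, minus strand), Plin4 (chr17:56109804-56110032, minus), Pnpla2 (chr7:141454938-141455187, plus), Plin2 (chr4:86670058-86670309, minus) and Fitm1 (chr14:55575424-55575616, plus).
Plin5: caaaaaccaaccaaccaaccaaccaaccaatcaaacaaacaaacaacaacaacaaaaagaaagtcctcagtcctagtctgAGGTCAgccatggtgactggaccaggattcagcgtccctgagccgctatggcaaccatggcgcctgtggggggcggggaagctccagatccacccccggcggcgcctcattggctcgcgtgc
Plin4: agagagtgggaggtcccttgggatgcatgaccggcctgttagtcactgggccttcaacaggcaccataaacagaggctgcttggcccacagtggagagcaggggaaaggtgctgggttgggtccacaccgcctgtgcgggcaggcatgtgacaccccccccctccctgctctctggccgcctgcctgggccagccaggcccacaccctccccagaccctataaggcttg
Pnpla2: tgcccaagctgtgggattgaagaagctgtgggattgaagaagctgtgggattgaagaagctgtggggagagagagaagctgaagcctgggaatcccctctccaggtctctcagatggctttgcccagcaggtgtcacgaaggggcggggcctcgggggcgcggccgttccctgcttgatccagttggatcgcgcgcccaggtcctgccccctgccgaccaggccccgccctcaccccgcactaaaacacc
Plin2: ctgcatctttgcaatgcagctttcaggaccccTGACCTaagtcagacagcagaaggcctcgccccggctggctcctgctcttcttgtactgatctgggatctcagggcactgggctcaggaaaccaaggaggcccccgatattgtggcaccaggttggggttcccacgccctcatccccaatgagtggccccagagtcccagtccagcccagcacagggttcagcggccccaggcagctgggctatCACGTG
Fitm1: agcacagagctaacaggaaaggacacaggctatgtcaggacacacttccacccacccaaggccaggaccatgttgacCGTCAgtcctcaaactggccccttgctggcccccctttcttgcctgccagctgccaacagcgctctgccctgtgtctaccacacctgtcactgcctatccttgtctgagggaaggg
The motifs were AGGTCA, the half-site that nuclear receptors of the PPAR and RXR kind recognise, the direct repeat of that half-site with 1 base between, the hypoxia response core ACGTG, the FOXO and FOXA core TGTTTAC, the cAMP response core TGACG, the E-box CACGTG, which contains ACGTG, and the glucocorticoid response element. AGGTCA stood in Plin5 at -170 from the RefSeq start and, on the other strand as TGACCT, in Plin2 at -218. It was found in 3 of the members' 12 windows, since a downstream start of Plin5 has another, and in 16.3% of all 32851 promoter windows of 300 bases. Plin2 also had CACGTG at -4, found in 7.15% of windows, and Fitm1 had TGACG at -173 on the other strand, found in 20.8%. Of the 10 members, 9 had a window in the RefSeq table, and no exact match to the direct repeat, to TGTTTAC or to the glucocorticoid response element lay in their 12 windows. A match is a run of letters and not a measured binding site.

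Over fasting time the members did not move together. Plin5 and Pnpla2 were highest at 8 h, Plin2 at 16 h and G0s2 at 24 h, while Cideb was highest in the fed library, within 1.43-fold of the others, when scaled by total. All 10 members had at least 1 UMI, but 5 of them (Plin2, Plin5, Cideb, Pnpla2 and G0s2) reached 50 CPM in some library, the level required here for calling a difference. The other 5 are given with their UMI counts and were not called between libraries.

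**Figure D1:**
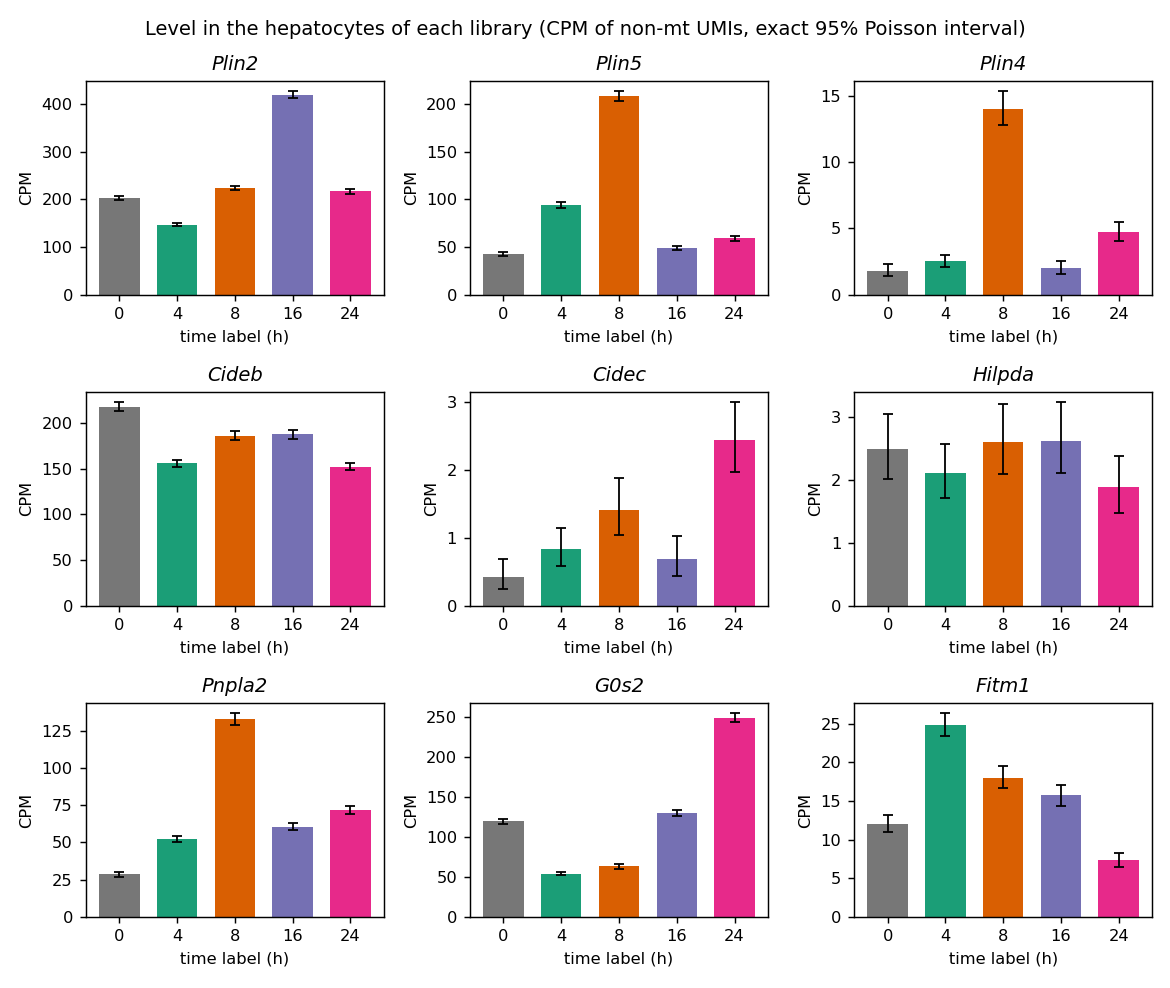
Level of 9 members in the hepatocytes of each library, as CPM of non-mitochondrial UMIs on a separate vertical scale for each gene, against the time label in hours. Bars are the summed level of 1 library and whiskers its exact 95% Poisson interval. Plin5, Plin4 and Pnpla2 are highest at 8 h, Plin2 at 16 h, G0s2 at 24 h and Fitm1 at 4 h. Cidea, with at most 2 UMIs in a library, is not drawn.

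Plin2 (ENSMUSG00000028494, chromosome 4, 86648386 to 86670060, minus strand, GRCm38, as all positions here from GENCODE M21) encodes the perilipin that coats droplets in most tissues and is the main one of fatty liver. It stood at 203 CPM (199 to 208) in the 0 h library, 147 CPM (143 to 150) in the 4 h library, 224 CPM (219 to 229) in the 8 h library, 420 CPM (413 to 427) in the 16 h library and 217 CPM (212 to 222) in the 24 h library. The 16 h library stood apart, with all others between 147 and 224 CPM. Genes of the stress response to cell isolation, a list of 10, were also highest in that library by their sum, at 626 CPM against 443, 360, 188 and 175 CPM at 0, 4, 8 and 24 h. Jun, Junb, Egr1, Hspa1a, Hspa1b and Nr4a1 were highest there, while Fos and Ier2 were highest at 4 h and Dusp1 and Atf3 at 0 h, and their part in the Plin2 level was not tested. Its ratio to fed was 2.07-fold at 16 h, a log2 difference of 1.05 (1.01 to 1.09). The 24 h library, taken like the fed one at clock hour 13, differed from it by 0.09 on the log2 scale (0.05 to 0.14). The lowest level was in the 4 h library, at a log2 difference of -0.47 (-0.52 to -0.42).

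Plin5 (ENSMUSG00000011305, chromosome 17, 56111601 to 56117596, minus strand) encodes the perilipin of tissues that oxidise much fat, which ties droplets to mitochondria and binds the lipase and its coactivator. Its level was 42.0 CPM (40.0 to 44.1) in the 0 h library, 94.1 CPM (91.3 to 96.9) in the 4 h library, 208 CPM (204 to 213) in the 8 h library, 48.9 CPM (46.6 to 51.3) in the 16 h library and 58.8 CPM (56.4 to 61.3) in the 24 h library. The 8 h library was highest and the 16 h library lay close to the fed one. Against fed, Plin5 was higher by 1.16 (1.08 to 1.25) in the 4 h library and 2.31 (2.23 to 2.39) in the 8 h library on the log2 scale, the latter a 4.96-fold ratio. The 8 h library was also the deepest per cell, and in cells of 5000 to 20000 UMIs its log2 difference was 2.26. From 8 h to 16 h the log2 difference was -2.09 (-2.17 to -2.01), which placed the 16 h library 4.26-fold below the 8 h one.

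Plin4 (ENSMUSG00000002831, chromosome 17, 56100591 to 56109803, minus strand), a perilipin of the surface of small droplets in fat and muscle, lies 1797 bases from Plin5 on the same strand, and its 3′ part overlaps Hdgfl2 on the plus strand. It was a low gene with 68, 114, 474, 66 and 177 UMIs at 0, 4, 8, 16 and 24 h. These gave 1.80, 2.5, 14, 1.97 and 4.71 CPM. The 8 h library was the highest for Plin4 as for its neighbour Plin5, at 7.79-fold the fed level and a log2 difference of 2.96 (2.59 to 3.35). At 24 h the log2 difference to fed was 1.39 (0.98 to 1.81), and at 4 h and 16 h it was 0.48 and 0.13. None of these counts as a call, since no library reached 50 CPM. Plin1, the perilipin of white fat cells, had no UMI in 4 of the 5 libraries.

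The ratio of Plin2 to Plin5 UMIs shows how far the pair diverged. Since each UMI marks 1 captured RNA end, the counts of these genes were set side by side without division by length, although capture may differ between genes. There were 4.83 Plin2 UMIs per Plin5 UMI at 0 h (4.58 to 5.10), 1.56 (1.5 to 1.62) in the 4 h library, 1.07 (1.04 to 1.11) in the 8 h library, 8.59 (8.16 to 9.05) in the 16 h library and 3.68 (3.52 to 3.86) in the 24 h library. Plin2 was thus the more abundant of the pair in every library, by least at 8 h and by most at 16 h.

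Of the CIDE genes, Cideb was the one with a high level in these cells. Cideb (ENSMUSG00000022219, chromosome 14, 55754050 to 55758458, minus strand) encodes the hepatocyte CIDE protein, which loads lipid onto very low density lipoprotein. It stood at 218, 156, 186, 188 and 152 CPM at 0, 4, 8, 16 and 24 h, with intervals that did not overlap between 0 h and any other library. The 4 h and 24 h libraries were lowest, at log2 differences to fed of -0.48 (-0.53 to -0.44) and -0.52 (-0.57 to -0.47), and none of its differences reached 2-fold. At 8 h its log2 difference of -0.23 turned to 0.015 with TMM scaling, described further on, and was -0.03 with median of ratios, so that its order between 0 h and 8 h depends on scaling. Cideb overlaps Nop9 on the opposite strand, and whether reads were counted by strand is not given in the sources used here.

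Cidec (ENSMUSG00000030278, chromosome 6, 113424634 to 113435760, minus strand) encodes a protein that enlarges droplets in fat cells and in fatty liver. It had 16, 38, 48, 23 and 92 UMIs at 0, 4, 8, 16 and 24 h, or 0.423, 0.835, 1.42, 0.686 and 2.45 CPM. The 24 h library was highest and stood 5.78-fold above fed, at a log2 difference of 2.53 (1.76 to 3.40), in counts too low for a call. Cidea (ENSMUSG00000024526), known from brown fat, had 2, 0, 1, 1 and 0 UMIs in time order. These counts are too few for a ratio, and the 0 UMIs at 4 h and 24 h allow up to 3 UMIs, or 0.0659 and 0.0798 CPM.

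Pnpla2 (ENSMUSG00000025509, chromosome 7, 141455198 to 141460743, plus strand), the adipose triglyceride lipase gene, had its lowest level in the fed library. It stood at 28.6 CPM (26.9 to 30.3) in the 0 h library, 52.4 CPM (50.3 to 54.5) in the 4 h library, 133 CPM (129 to 137) in the 8 h library, 60.6 CPM (58.0 to 63.3) in the 16 h library and 71.5 CPM (68.9 to 74.3) in the 24 h library. Every fasted library was above the fed one, and the 8 h library was above all others. The log2 difference to fed was 0.88 (0.77 to 0.98) in the 4 h library, 2.22 (2.12 to 2.31) in the 8 h library, 1.09 (0.98 to 1.19) in the 16 h library and 1.32 (1.22 to 1.43) in the 24 h library. Pnpla2 was the only member at least 2-fold above fed in 3 of the 4 fasted libraries.

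G0s2 (ENSMUSG00000009633, chromosome 1, 193272161 to 193273217, minus strand) encodes a protein that binds the lipase and blocks it. Its level was 119 CPM (116 to 123) in the 0 h library, 53.8 CPM (51.7 to 56.0) in the 4 h library, 62.8 CPM (60.2 to 65.5) in the 8 h library, 130 CPM (126 to 134) in the 16 h library and 249 CPM (244 to 254) in the 24 h library. The 4 h and 8 h libraries were low, the 16 h library was near fed and the 24 h library was high. The log2 difference to fed was -1.15 (-1.22 to -1.07) in the 4 h library, -0.92 (-1.0 to -0.85) in the 8 h library, 0.12 (0.06 to 0.18) in the 16 h library and 1.06 (1.01 to 1.12) in the 24 h library. G0s2 lies within the span of Lamb3, which is on the opposite strand.

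Lipase and inhibitor differed in opposite directions between the 0 h and 4 h libraries and again between the 8 h and 16 h libraries. There were 0.240 Pnpla2 UMIs per G0s2 UMI at 0 h (0.224 to 0.256), 0.974 (0.920 to 1.03) in the 4 h library, 2.11 (2.01 to 2.23) in the 8 h library, 0.468 (0.444 to 0.493) in the 16 h library and 0.287 (0.275 to 0.300) in the 24 h library. The 8 h library was the only one with more lipase than inhibitor UMIs beyond counting error. The 24 h ratio was nearest to the fed ratio, with intervals that did not overlap, although both genes were at least 2-fold higher at 24 h than at 0 h. A ratio of 2 genes in 1 library does not depend on how that library was scaled.

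**Figure D2:**
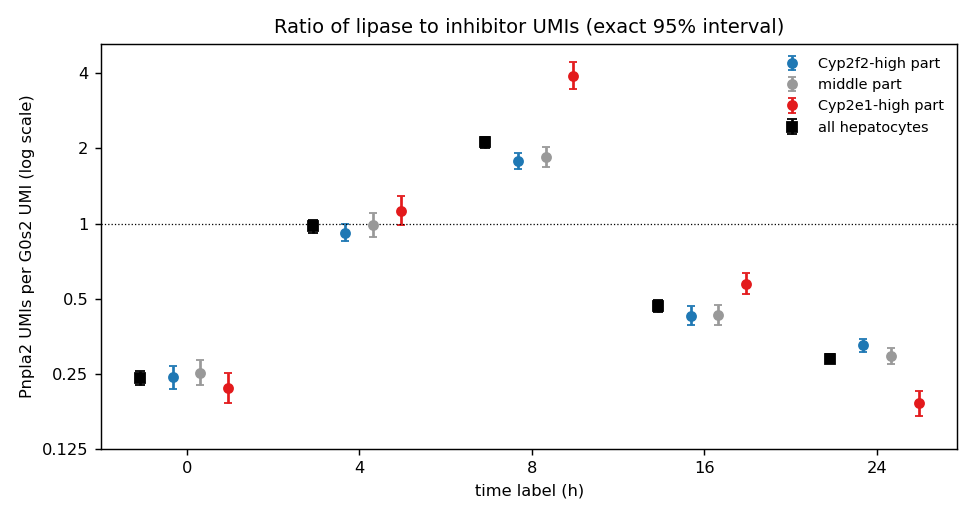
Pnpla2 UMIs per G0s2 UMI in each library, on a log scale, against the time label in hours. Squares are all hepatocytes and circles are the parts of the hepatocytes with most Cyp2f2, intermediate and most Cyp2e1, and whiskers are exact 95% intervals for counting error. The squares lie at 0.240, 0.974, 2.11, 0.468 and 0.287, and the parts of 1 library are furthest apart at 8 h and 24 h.

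Hilpda (ENSMUSG00000043421, chromosome 6, 29272488 to 29275446, plus strand) encodes another inhibitor of the lipase, known as a hypoxia target. It had 94, 96, 88, 88 and 71 UMIs in time order, or 1.89 to 2.63 CPM, and all 4 intervals of its log2 difference to fed included 0. The smallest and largest bounds of those intervals were -0.86 and 0.51, so that a 2-fold difference from fed in either direction lay outside each of them, although with mitochondrial shares of 2 to 15% the 4 h difference was -1.14 in place of -0.24. Fitm1 (ENSMUSG00000022215, chromosome 14, 55575617 to 55576954, plus strand), of the family that helps triglyceride to partition into droplets and mostly known from muscle, had 456, 1131, 610, 527 and 276 UMIs, or 12.1, 24.8, 18.0, 15.7 and 7.34 CPM. Its 4 h library was highest, at a log2 difference to fed of 1.04 (0.88 to 1.2), and its 24 h library lowest, at -0.72 (-0.94 to -0.50). The 4 h difference was 1.92 with mitochondrial shares of 2 to 15% and 1.5 by the mean of per-cell CPM. Fitm1 overlaps the noncoding gene Gm15932 on the opposite strand.

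Counted by calls of at least 2-fold, with 50 CPM or more in either library, 1 member was higher at 4 h than at 0 h (Plin5) where 5.73% of the 2948 genes considered were, and 1 was lower (G0s2) where 5.97% were. At 8 h, 2 members were higher (Plin5 and Pnpla2; 7.95% of genes) and 0 were lower (11.8%). At 16 h, 2 were higher (Plin2 and Pnpla2; 3.31%) and 0 lower (4.04%), and at 24 h, 2 were higher (Pnpla2 and G0s2; 6.68%) and 0 lower (10.6%). The median log2 difference of the members at 50 CPM or more was -0.47 over 5 genes at 4 h, 0.14 over 5 at 8 h, 0.59 over 4 at 16 h and 0.49 over 5 at 24 h. Over all genes considered it was -0.03, -0.04, 0.0011 and -0.03. The 4 comparisons share the fed library. Of the calls, Plin2 at 16 h missed 2-fold at log2 differences of 0.99 with mitochondrial shares of 2 to 15% and 0.98 in cells of 5000 to 20000 UMIs, and G0s2 at 24 h did at 0.993 when scaled to all UMIs and 0.995 in cells of 5000 to 20000 UMIs. The G0s2 call at 4 h was lost with TMM, with median of ratios and with mitochondrial shares of 2 to 15%.

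**Figure D3:**
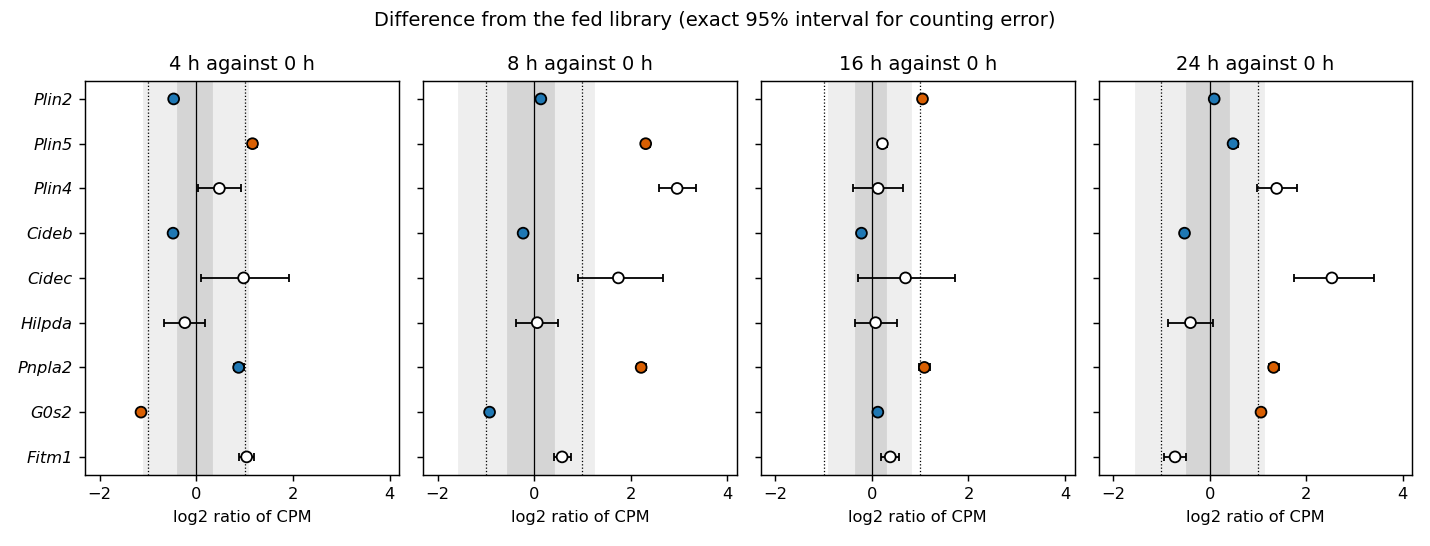
Log2 ratio of CPM to the fed library for 9 members at 4, 8, 16 and 24 h, with exact 95% intervals for counting error. Orange points are called (at least 2-fold, dotted lines, with 50 CPM or more in either library), blue points reach 50 CPM without a call and white points do not reach it, and the light and dark bands hold 90% and 50% of all genes considered. Of the members that reach 50 CPM, those right of the light band are Plin5 at 4 h, Plin5 and Pnpla2 at 8 h, Plin2 and Pnpla2 at 16 h and Pnpla2 at 24 h, and G0s2 at 4 h lies left of it.

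Against the library before, Plin5 and Pnpla2 were 2.22-fold and 2.53-fold higher at 8 h than at 4 h, 2 members called where 1.11% of 2797 genes were at least 2-fold higher and 2.22% lower. Between 8 h and 16 h, Plin5 and Pnpla2 were lower (9.74% of 3059 genes were) and G0s2 was 2.06-fold higher (11.3% were). Between 16 h and 24 h no member was called, with 7.52% and 6.92% of genes higher and lower. The G0s2 call at 16 h was lost at log2 differences of 0.86 with TMM scaling and 0.98 with all UMIs. Of the members at 50 CPM, G0s2 came nearest between 16 h and 24 h on the higher side at a log2 difference of 0.94 (0.89 to 0.99) and Plin2 on the lower side at -0.95 (-0.99 to -0.91). Under 50 CPM, Cidec at 1.84, Plin4 at 1.26 and Fitm1 at -1.10 were past 2-fold between these libraries.

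The genes whose levels over the 5 libraries were most like those of a member were found by the root-mean-square difference of log2 CPM after centring each gene, among 935 other genes with a mean of at least 50 CPM and a range of at least 1 on the log2 scale. For Plin2 they were Jade1 (0.13) and Prkd3 (0.17), for Plin5 Mpnd (0.31) and Rack1 (0.32), for Pnpla2 Sco2 (0.24) and Atf5 (0.24), for G0s2 Retsat (0.37) and Apol7a (0.40), and for Cideb Copz1 (0.16) and Nars (0.17). Cideb itself had a range of 0.52, under the limit of 1, so genes as flat as Cideb were not considered. Jade1 stood at 67.8, 50.8, 67.3, 164 and 68.0 CPM at 0, 4, 8, 16 and 24 h, low at 4 h and high at 16 h as Plin2 was. Sco2 stood at 22.7, 56.7, 128, 40.5 and 62.2 CPM, highest at 8 h as Pnpla2 was. Between the 5 members with a mean of at least 50 CPM, the difference was smallest for Plin2 and Cideb at 0.47, next to Plin5 and Pnpla2 at 0.49. It was largest for Plin5 and G0s2 at 1.48. Plin2 and Cideb were still highest in different libraries, at 16 h and 0 h. Plin2 UMIs per Cideb UMI were 0.932 at 0 h and 2.24 at 16 h.

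The rest of the droplet pathway was read from 6 lists by function. Of all 3289 genes that reached 50 CPM in some library, 12.3% were called higher than fed in at least 1 fasted library, 15.3% lower and 27.1% either way. Among 15 other droplet surface and biogenesis genes, 9 reached 50 CPM in some library and 2 were called against fed, both lower, or 2 of 9 where 15.3% of all genes were. Acsl3, an acyl-CoA synthetase of forming droplets, was at 94.1, 38.4, 13.7, 57.8 and 35.2 CPM from 0 h to 24 h. Mettl7b, a droplet-associated methyltransferase-like protein, stood at 629, 393, 305, 416 and 445 CPM. Both were highest in the fed library and lowest at 8 h, where Plin5, Plin4 and Pnpla2 were highest.

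Among 13 other lipases and cofactors, 9 reached 50 CPM and 2 were called, both lower, again beside 15.3% of all genes. Ces3a, a carboxylesterase, had 749 CPM in the fed and 263 CPM in the 24 h library, and Aadac, a microsomal esterase, 247 CPM fed and 113 CPM at 8 h. Abhd5, named outside the rule for naming genes because it encodes the coactivator of the Pnpla2 lipase, stood at 46.0, 27.6, 29.7, 28.2 and 24.9 CPM and so did not reach the level for a call. It was highest in the fed library, where Pnpla2 was lowest.

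Among 14 genes of triglyceride synthesis, 9 reached 50 CPM and 7 were called in some fasted library, beside 27.1% of all genes. By time, 2 were higher and 1 lower at 4 h (5.73% and 5.97% of all genes), 4 and 1 at 8 h (7.95% and 11.8%), 1 and 3 at 16 h (3.31% and 4.04%), and 3 and 1 at 24 h (6.68% and 10.6%). Gpam, the acyltransferase of the opening step, was lower in all 4 fasted libraries, at 632 CPM fed and 74.1 CPM at 8 h. Lpin1, a phosphatidate phosphatase, stood at 181, 937, 1568, 126 and 363 CPM, and its relative Lpin2 at 83.6, 397, 404, 188 and 288 CPM. Gpat4, an acyltransferase that can act at droplets, stood at 107, 186, 253, 74.7 and 133 CPM. Lpin1, Lpin2 and Gpat4 were all highest at 8 h, and Lpin1 and Gpat4 were below fed at 16 h. The median log2 difference to fed of the list was 0.43, 0.19, -0.51 and 0.32 at 4, 8, 16 and 24 h.

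Of 8 genes of lipoprotein assembly, 6 reached 50 CPM and 1 was called, where 12.3% of all genes were higher: Apoa4, an apolipoprotein, at 148 CPM fed and 329 CPM at 24 h. Of 8 genes of fatty acid uptake and binding, 4 reached 50 CPM and 1 was called, where 15.3% of all genes were lower: Slc27a2, a fatty acid transporter and acyl-CoA synthetase, at 737 CPM fed and 275 CPM at 8 h. Of 13 regulators, 10 reached 50 CPM and 6 were called, beside 27.1% of all genes. Srebf1, a transcription factor of lipid synthesis, had 438, 88.4, 22.9, 64.0 and 70.8 CPM, and Insig2, which retains its product's precursor in the endoplasmic reticulum, had 187, 547, 782, 512 and 252 CPM. Foxo1, a transcription factor held back by insulin signalling, stood at 29.6, 80.8, 96.0, 34.3 and 70.0 CPM. Ppara, the fatty acid receptor that drives oxidation genes, had 57.2, 95.5, 79.4, 95.8 and 134 CPM, highest at 24 h as G0s2 was. The regulators' median log2 difference to fed was 0.37, 0.62, -0.04 and 0.43.

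Hepatocytes differ along the liver lobule, with Cyp2f2 high near the portal vein and Cyp2e1 high near the central vein. In each library the hepatocytes were put in order by log2 of Cyp2f2 UMIs plus 1 over Cyp2e1 UMIs plus 1 and cut into 3 equal parts, which are ranges of this ratio and not positions in tissue. Of other known landmark genes, 10 of 11 portal ones were higher in the Cyp2f2-high part and 13 of 13 central ones in the Cyp2e1-high part at 0, 4, 8 and 16 h. At 24 h these counts were 8 of 11 and 12 of 13. There 195 of the 1526 cells of the Cyp2e1-high part had a UMI of neither gene, so that the order is least secure at 24 h. The Cyp2e1-high part was the shallower one in every library, with medians of 2614, 3759, 9211.5, 3833.5 and 2812 UMIs per cell in time order. Those of the Cyp2f2-high part were 7095, 20403, 19390, 4726 and 15537. The 7 hepatocyte markers also summed to less in the Cyp2e1-high part each time, as at 4 h with 69853 against 106338 CPM. A difference along the order was called at 1.5-fold with at least 50 CPM in either part.

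Fitm1 was the member that differed most along the order, and in 1 direction in all 5 libraries. In the Cyp2f2-high, middle and Cyp2e1-high parts it stood at 4.18, 4.61 and 37.5 CPM at 0 h, 5.36, 15.6 and 80.5 CPM at 4 h, and 2.63, 3.57 and 65.4 CPM at 8 h. At 16 h these levels were 3.39, 4.78 and 41.9 CPM, and at 24 h 4.62, 4.82 and 20.5 CPM. The Cyp2e1-high part was highest each time, by 8.97-fold, 15-fold, 24.8-fold, 12.4-fold and 4.43-fold over the Cyp2f2-high part in time order. On the log2 scale the Cyp2f2-high part differed from it by -3.17 (-3.57 to -2.78), -3.91 (-4.19 to -3.64), -4.63 (-5.13 to -4.18), -3.63 (-4.13 to -3.16) and -2.15 (-2.55 to -1.75). Only the 4 h and 8 h differences count as calls, since 50 CPM was reached only there.

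The Cyp2e1-high part held 72.1%, 72.3%, 87.4%, 82.2% and 46.7% of the Fitm1 UMIs at 0, 4, 8, 16 and 24 h, and 23.2%, 22.3%, 24.1%, 30.8% and 16.7% of all non-mitochondrial UMIs. Counted from the Cyp2e1 end among the 6992 to 7411 genes with at least 10 CPM in a part, Fitm1 ranked 126, 29, 22, 28 and 38. With the cells cut into 5 equal groups instead, the level was highest in the group at the Cyp2e1 end in all 5 libraries and lower in each of the next 2 groups. At 8 h, for example, the groups from that end held 91.1, 9.63, 3.99, 2.38 and 2.89 CPM, and at 4 h 88.7, 43.6, 18.3, 5.60 and 5.33 CPM.

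Inside the Cyp2e1-high part, cells with 3 or more UMIs of Glul, the glutamine synthetase of hepatocytes next to the central vein, were set beside cells with none. Fitm1 stood at 48.9 against 32.7 CPM at 0 h, 115 against 69.6 CPM at 4 h, 96.4 against 55.7 CPM at 8 h, 91.8 against 34.8 CPM at 16 h and 34.7 against 16.7 CPM at 24 h. The cells with Glul were higher each time, on 71, 239, 115, 31 and 5 Fitm1 UMIs from 220, 142, 86, 87 and 13 cells. No interval was computed here, and the 24 h value rests on very few counts. The cells with Glul were also higher in Cyp2e1.

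Markers of endothelial cells, of Kupffer cells and macrophages, and of stellate cells were also higher in the Cyp2e1-high part in all 5 libraries. The 10 endothelial markers, all detected there in each library, summed to 347, 25.9, 38.5, 80.8 and 78.5 CPM in it and to 17.6, 2.74, 4.82, 11.5 and 6.32 CPM in the Cyp2f2-high part. The 10 Kupffer cell and macrophage markers summed to 169 against 5.45 CPM at 0 h, and the 8 stellate cell markers to 119 against 2.11 CPM at 24 h. The 6 cholangiocyte markers went the other way at 0, 4, 8 and 16 h. They summed to 62.3, 24.7, 21.3 and 34.8 CPM in the Cyp2e1-high part, against 83.6, 59.1, 41.2 and 97.0 CPM in the Cyp2f2-high part. At 24 h they were higher in the Cyp2e1-high part, at 60.7 against 21.4 CPM. The 5 neutrophil markers were lower in the Cyp2e1-high part at 0 and 8 h. Without barcodes that carried markers of another cell type, a filter that did not use the cholangiocyte markers, the log2 difference of Fitm1 was -3.12, -3.91, -4.62, -3.64 and -2.14. These are close to the values with such barcodes. The part of other cell types in the Fitm1 difference was not tested.

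G0s2, the inhibitor gene, was the other member called along the order, at 8 h, where it had 71.7 CPM in the Cyp2f2-high, 69.6 CPM in the middle and 37.4 CPM in the Cyp2e1-high part. This is a log2 difference of 0.94 (0.75 to 1.12). At 24 h it leaned to the other side, with 226, 256 and 306 CPM and a log2 difference of -0.43 (-0.51 to -0.36). The middle part lay with the Cyp2f2-high one at 8 h. When the CPM of single cells were averaged, which gives each cell the same weight, the 8 h difference was 0.56 on the log2 scale and no longer a call.

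The remaining members at 50 CPM or more had no call. Plin2 had log2 differences of 0.11, -0.10, 0.53, 0.11 and -0.16 in time order, the 8 h one (0.44 to 0.62) from 237 CPM in the Cyp2f2-high and 164 CPM in the Cyp2e1-high part. That 8 h difference passed 1.5-fold at 0.69 with 5 groups, 0.73 with the cells ordered by a score of landmark genes, 0.70 with the fed library's limits of the parts, 0.82 with mitochondrial shares of 0 to 30% and 0.59 in cells of 5000 to 20000 UMIs. Plin5 stayed between -0.10 and 0.21, Pnpla2 between -0.19 and 0.34, and Cideb between -0.44 and 0.47. The 24 h values depended on which cells were used: in cells of 5000 to 20000 UMIs Cideb was at 0.04 and Pnpla2 at -0.07, and with mitochondrial shares of 2 to 15% they were at 1.34 and 0.69, both past 1.5-fold. By calls, 0 of the 3 members at 50 CPM or more in a part at 0 h were higher or lower in the Cyp2f2-high part, where 1.92% and 4.82% of genes considered were. At 4 h it was 0 higher and 1 lower of 6 (Fitm1; 3.96% and 6.03% of genes), and at 8 h 1 higher and 1 lower of 6 (G0s2 and Fitm1; 1.81% and 4.06%). It was 0 and 0 of 4 at 16 h (2.59% and 5.36%) and 0 and 0 of 5 at 24 h (17.4% and 16.4%).

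**Figure D4:**
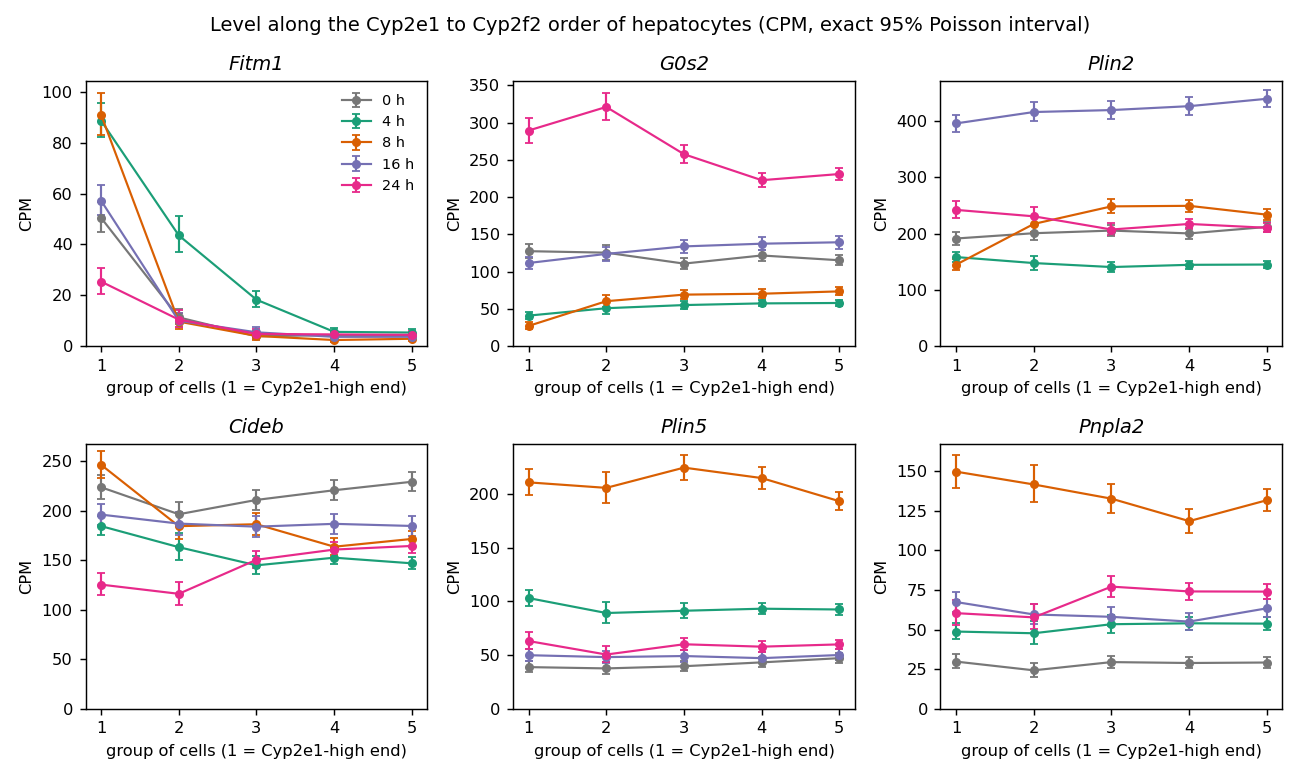
Level of 6 members in CPM against 5 equal groups of hepatocytes along the order, with group 1 at the Cyp2e1-high end, as 1 line per library with exact 95% Poisson intervals. Fitm1 is high in the group at the Cyp2e1 end in all 5 libraries, reaching 91.1 CPM at 8 h, and the 8 h lines of Plin5 and Pnpla2 lie above those of the other 4 libraries in all 5 groups.

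The differences over time were then read within each part. The parts are cut by rank in each library, so their limits differ: the middle part lay between log2 ratios of 1 and 3 in the fed library, between -1.32 and 3 in the 4 h library and between 2.49 and 4.95 in the 8 h library, and a part at 2 times does not hold cells of the same Cyp2f2 to Cyp2e1 ratio. The 8 h library was above fed in all 3 parts for Plin5, by 2.15, 2.47 and 2.40 on the log2 scale in the Cyp2f2-high, middle and Cyp2e1-high part, and for Pnpla2, by 2.16, 2.14 and 2.41. The 16 h difference of Plin2 was 1.07, 1.03 and 1.07. G0s2 at 8 h differed from fed by -0.72, -0.73 and -1.75, the largest in the Cyp2e1-high part, and at 24 h above it by 0.94, 1.15 and 1.28.

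Fitm1 did not follow this pattern. Its 4 h difference to fed was 0.36 in the Cyp2f2-high part (-0.08 to 0.81), 1.76 in the middle (1.34 to 2.20) and 1.10 in the Cyp2e1-high part (0.91 to 1.29). At 8 h it was -0.67 (-1.27 to -0.08) in the Cyp2f2-high part, -0.37 (-1.01 to 0.25) in the middle and 0.80 (0.60 to 1.0) in the Cyp2e1-high part, with 0 inside the interval of the middle part.

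The ratio of lipase to inhibitor also differed by part. At 8 h there were 1.79 Pnpla2 UMIs per G0s2 UMI in the Cyp2f2-high part (1.66 to 1.92), 1.85 in the middle (1.69 to 2.03) and 3.91 in the Cyp2e1-high part (3.45 to 4.45). At 24 h the ratios were 0.325 (0.306 to 0.345), 0.295 (0.273 to 0.318) and 0.190 (0.170 to 0.213). The Cyp2e1-high part had the highest ratio at 8 h and at 16 h (0.573, against 0.426 and 0.431), and the lowest at 24 h. At 4 h its ratio of 1.13 (0.986 to 1.28) and at 0 h its ratio of 0.219 (0.190 to 0.252) had intervals that overlapped those of the other parts. In cells of 5000 to 20000 UMIs the 24 h log2 differences between the Cyp2f2-high and the Cyp2e1-high part were near each other, at -0.07 for Pnpla2 and -0.16 for G0s2, while at 8 h they were -0.23 and 1.02.

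In single cells the members were sparse. After each cell was thinned to 1000 non-mitochondrial UMIs, which left out 0, 4, 25, 122 and 0 shallower cells, Plin2 had a UMI in 18.0%, 12.7%, 20.1%, 32.8% and 19.4% of hepatocytes at 0, 4, 8, 16 and 24 h. Before thinning, at median depths of 3782 to 13643 UMIs in these cells, the shares were 55.3%, 61.6%, 84.1%, 72.7% and 68.6%. Barcodes with endothelial markers were taken with no limit on the mitochondrial share and overlap the hepatocytes. Of the hepatocytes, 164 at 0 h and 48 at 16 h carried these markers. Thinned alike, such barcodes had a Plin2 UMI in 15.8% (11.8% to 20.6%) of 284 at 0 h and 34.0% (21.5% to 48.3%) of 53 at 16 h. Since these sets share cells, their similar shares cannot show whether Plin2 in hepatocytes is background. The same limit holds for G0s2, in 11.2% of hepatocytes at 0 h and 8.10% (5.20% to 11.9%) of those barcodes.

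Cideb had a higher share in hepatocytes than in those overlapping barcodes at 0 h. After thinning it had a UMI in 18.3% (17.4% to 19.1%) of hepatocytes, 54.8% before it, and in 8.10% (5.20% to 11.9%) of the endothelial barcodes. Thinned to 3000 UMIs, 45.4% of hepatocytes and 44.4% (13.7% to 78.8%) of the 9 endothelial barcodes that deep had one at 0 h, and were not told apart. At 4, 8, 16 and 24 h the intervals of the few such barcodes, thinned to 1000 UMIs, reached the hepatocyte share, as at 16 h with 7.55% (2.09% to 18.2%) against 16.6%. The median depths at 0 h were 4702 UMIs in the hepatocytes and 1718 in the endothelial barcodes. The variance of thinned UMIs over their mean, which is 1 for random sampling, was between 0.960 and 1.2 for all detected members, and G0s2 had the highest value in 4 of 5 libraries.

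Barcodes under 2% mitochondrial UMIs, which otherwise met the limits, were left out of the hepatocytes. They numbered 2172, 5345, 576, 234 and 5400 in time order, and their Alb level was lower than in the hepatocytes, at 11835 against 57626 CPM at 4 h. Fitm1 stood at 56.2, 124, 140, 40.7 and 20.0 CPM in them, which was 4.65-fold, 4.99-fold, 7.76-fold, 2.59-fold and 2.72-fold its level over all hepatocytes and close to or above its level in the Cyp2e1-high part. Differences were common in these barcodes, where 20.4%, 21.0%, 15.9%, 17.2% and 22.9% of genes considered were at least 2-fold higher than in the hepatocytes and 25.1%, 33.8%, 43.2%, 21.6% and 30% at least 2-fold lower. Cideb, 2.94-fold, 2.84-fold and 2.81-fold below its hepatocyte level at 4, 8 and 24 h, and Plin2, 2.07-fold below at 8 h, were among the lower ones. In the other 4 libraries Plin2 was higher in these barcodes, by 1.42-fold, 1.49-fold, 1.69-fold and 1.53-fold at 0, 4, 16 and 24 h.

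**Figure D5:**
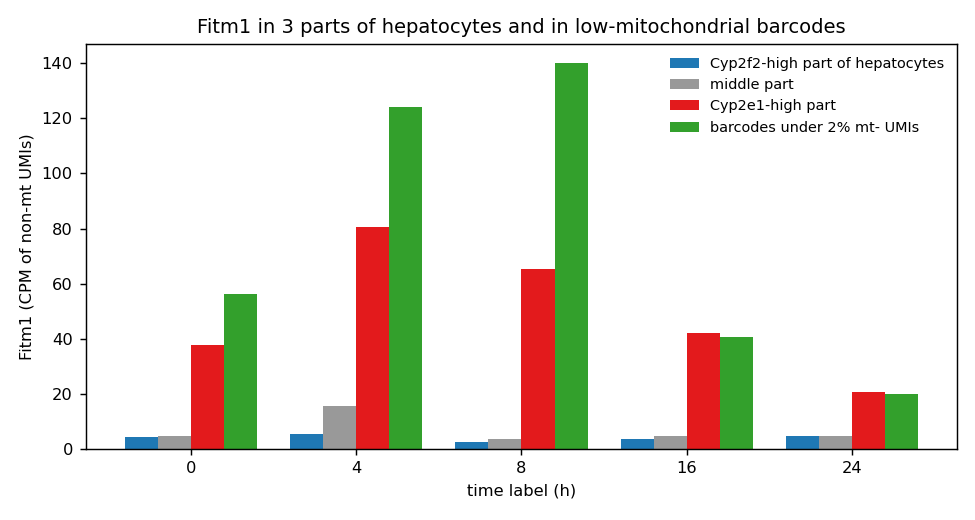
Fitm1 level in CPM in the Cyp2f2-high, middle and Cyp2e1-high part of the hepatocytes and in barcodes with under 2% mitochondrial UMIs, by time label. Bars are sums over the cells of 1 library and have no error bars, and the barcodes under 2% reach 140 CPM at 8 h, against 65.4 CPM in the Cyp2e1-high part.

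Scaling bears on the direction of small differences. Scaled by the trimmed mean of M-values (TMM), the median log2 difference to fed of the 2009 genes with at least 50 CPM was 0.23, 0.23, 0.06 and 0.20 at 4, 8, 16 and 24 h, against 0.02, -0.01, 0.0029 and 0.02 by total. The share of called genes that were higher than fed was then 71.7%, 62.6%, 53.5% and 56.4%, against 49.0%, 40.2%, 45.0% and 38.6% by total, and 65.2%, 58.4%, 49.3% and 53.2% by median of ratios. By all UMIs, mitochondrial ones included, it was 35.8% at 4 h. G0s2 at 4 h, at -0.93 with TMM and -1.0 with median of ratios, was then no longer a call (nor was it at -0.82 with mitochondrial shares of 2 to 15%). Pnpla2 at 4 h became a call at 1.09 with TMM and 1.02 with median of ratios.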

How the data were processed

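Cells were hepatocytes isolated from mouse liver and captured with 10x Chromium 3' chemistry, 1 library for each of 5 time labels. The deposited values are UMI counts per gene and barcode, made with Cell Ranger 6.0.1 per the file headers and on mm10 per the submitters' processing notes, with no normalization, and each library holds 10000 barcodes. Whether reads were counted by strand is not given in the sources used here.

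From these counts, barcodes with at least 1000 UMIs, 500 genes and 2 to 30% mitochondrial UMIs were summed per library as hepatocytes and scaled to CPM of non-mitochondrial UMIs. The summed depth of 33521626 to 45532684 UMIs per library sets the counting error. Levels carry exact Poisson intervals, ratios exact conditional binomial intervals and shares of cells Clopper-Pearson intervals, all at 95% and for counting error only. A difference over time was called at 2-fold, and one along the Cyp2f2 to Cyp2e1 order at 1.5-fold, with at least 50 CPM on either side. Each UMI is 1 tag, so levels of different genes were compared without length. With 1 library per label no test was run. Single cells were thinned to 1000 UMIs with a fixed seed. No doublet caller was run, and the main results include all barcodes that met the limits. Doublets were addressed only in alternatives. These left out barcodes with at least 3 markers of another type making up 0.2% of UMIs, or the 5% of cells with most UMIs.

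The members and gene lists were chosen with earlier results of these data known. Genes outside the members were named by rule: up to 4 called genes per list with the largest difference to fed, and the 2 nearest profiles per member. Alternatives covered scaling, filters, minimum level and how cells were ordered, and cells of 5000 to 20000 UMIs and cells with a UMI of Cyp2f2 or Cyp2e1 were added after seeing the data. Positions are from GENCODE M21 (GRCm38), matched by gene ID. The calculations were tested on simulated data. TMM factors came from edgeR 4.0.16 (R 4.3.3), plots from matplotlib 3.10.9, intervals from scipy 1.17.1 and the rest from pandas 2.3.3 and numpy 2.4.6 in Python 3.11.15.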

Additional observations from a re-analysis of the deposited data

Results flagged for a closer look

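Members whose difference along the Cyp2f2 to Cyp2e1 order had opposite signs in 2 libraries, each with an interval on 1 side of 0, were singled out. Plin2 had a log2 difference of the Cyp2f2-high to the Cyp2e1-high part of 0.53 at 8 h and -0.16 at 24 h. For G0s2 the values were 0.94 at 8 h and -0.43 at 24 h. Cideb went the other way, at -0.44 at 8 h and 0.47 at 24 h, as did Pnpla2, at -0.19 and 0.34. Plin2 and G0s2, a coat gene and an inhibitor gene, thus leaned to the Cyp2f2 side at 8 h, and Cideb and Pnpla2 to the Cyp2e1 side, with the reverse at 24 h. In cells of 5000 to 20000 UMIs the 24 h value was -0.07 for Pnpla2, the same side as at 8 h, and 0.04 for Cideb, -0.06 for Plin2 and -0.16 for G0s2, while over all cells the 2 parts at 24 h had medians of 2812 and 15537 UMIs. The difference between the libraries was not tested, and the 24 h order is the one with the fewest landmarks in place.

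Fitm1 stood out in barcodes under 2% mitochondrial UMIs, which enter comparisons between libraries only in the alternative with mitochondrial shares of 0 to 30%, at 56.2 CPM at 0 h, 124 CPM at 4 h and 140 CPM at 8 h. These levels were at least 2-fold above those of the hepatocytes and reached 50 CPM. In the same barcodes Cyp2f2 was lower than in the hepatocytes, at 435, 174 and 381 CPM against 1835, 1522 and 2157 CPM, and Cyp2e1 was higher, at 2050, 2758 and 1888 CPM against 1404, 2197 and 1130 CPM. At 24 h, where Fitm1 was 2.72-fold higher, Cyp2e1 was lower, at 328 against 478 CPM, and Glul was lower at 0, 8 and 24 h, at 144, 55.0 and 34.6 CPM against 202, 65.8 and 52.8 CPM, and higher at 4 and 16 h, at 113 and 145 CPM against 89.4 and 98.0 CPM. Cyp2e1 was also higher at 16 h, at 3718 against 2304 CPM. Their part in the Fitm1 level was not tested. When these barcodes were themselves put in parts by the same order, the log2 difference of Fitm1 between the Cyp2f2-high and the Cyp2e1-high part was -0.43 in the fed library (interval -0.92 to 0.04), -0.45 in the 4 h library (interval -0.65 to -0.26), -0.40 in the 8 h library (interval -0.92 to 0.10), -0.48 in the 16 h library (interval -2.70 to 1.49) and -0.68 in the 24 h library (interval -1.05 to -0.32). The intervals of 4 h and 24 h leave out 0.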

How the results depend on the processing

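No paired analysis was possible because each time label has 1 library, and for the same reason no library could be left out. Over the alternatives tried, 288 of the counts of called members stayed the same and 48 moved, and the cause was not tested except where fewer or more genes passed the minimum. Against fed, 4 h gave 2 higher and 0 lower with TMM and with median of ratios, 0 lower with mitochondrial shares of 2 to 15%, 2 higher with a minimum of 10 CPM, and 2 higher and 2 lower with no minimum. At 8 h, 1 was lower by the mean of per-cell CPM and with shares of 0 to 30%, and 3 were higher with a minimum of 10 CPM and 4 with none. At 16 h, 1 was higher with shares of 2 to 15% and in cells of 5000 to 20000 UMIs. At 24 h, 1 was higher with all UMIs and in cells of 5000 to 20000 UMIs, and with no minimum 4 were higher and 1 lower.

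Against the library before, a minimum of 10 CPM gave 3 higher at 8 h and 3 lower at 16 h, and no minimum 4 higher at 8 h, 4 lower at 16 h, and 2 higher and 2 lower at 24 h. At 16 h, 0 were higher with all UMIs, TMM, median of ratios and shares of 2 to 15%. At 24 h, 1 was higher with TMM, median of ratios, per-cell CPM and shares of 2 to 15% or 0 to 30%, and 1 lower with a minimum of 10 CPM. Along the order, 1 was lower at 0 h with 5 groups, shares of 0 to 30% or a minimum of 10 CPM. At 8 h, 2 were higher with the landmark score, 5 groups, the fed library's limits, shares of 0 to 30% and cells of 5000 to 20000 UMIs, and 0 with per-cell CPM. At 16 h, 1 was lower with 5 groups or a minimum of 10 CPM. At 24 h, 2 were higher and 1 lower with shares of 2 to 15%, 1 higher with 0 to 30%, 1 higher and 1 lower with per-cell CPM, and 1 lower with a minimum of 10 CPM.

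The log2 difference to fed ranged from 2.26 to 2.55 for Plin5 and 2.18 to 2.46 for Pnpla2 at 8 h, 0.98 to 1.11 for Plin2 at 16 h, and -1.27 to -0.82 at 4 h and 0.99 to 1.24 at 24 h for G0s2. Fitm1 along the order kept its sign, between -5.20 and -1.41 over the 5 libraries, while G0s2 at 8 h ran from 0.56 to 1.44. Fitm1 against fed ran from 0.92 to 1.92 at 4 h and from -0.03 to 0.57 at 16 h, and Hilpda at 4 h from -1.14 to 0.0088. Along the order at 24 h, Cideb ran from 0.04 to 1.34 and Pnpla2 from -0.07 to 0.69. Over all genes, 169 were higher and 176 lower at 4 h than at 0 h by total and 258 and 102 with TMM, and at 8 h 240 and 357 by total and 397 and 237 with TMM. The share of calls that were higher went from 33.3% to 62.8% at 8 h against 4 h with all UMIs, from 53.7% to 33.2% and 36.7% at 16 h against 8 h with TMM and median of ratios, and from 52.1% to 65.6% and 64.0% at 24 h against 16 h. Depth limited Cidea, with at most 2 UMIs in a library, and Cidec, with 16 to 92.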
